A study of Mus musculus with 12 samples.

Results

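The 10 C-type lectin receptor genes Clec4n, Clec4e, Clec4d, Clec7a, Clec5a, Clec12a, Clec4a1, Clec10a, Mgl2 and Mrc1 were followed in mouse bone marrow-derived macrophages, as 10 of the 16145 genes listed in the 12 libraries. They were picked by gene symbol, and all 10 passed the filter on low counts and were tested. Marrow cells of wild-type (WT) and Irg1KO mice were grown for 7 days with M-CSF (macrophage colony stimulating factor), and 4 groups of 3 libraries were made from total RNA. WT cells received 120 µM 4-octyl itaconate (4-OI, a cell-permeable ester of the metabolite itaconate) for 15 h or 15 µM hemin (oxidised heme with its iron) for 12 h. Irg1KO cells, named for the gene of the itaconate-making enzyme (now Acod1), received vehicle for 12 h, as did the WT cells that served as control. No group carries a microbial stimulus on its label, and the Irg1KO allele, the strain, sex and age of the mice and the number of mice behind each group are not given in the sources used here. The p-values therefore measure only the spread between these libraries, which may be technical.

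C-type lectin receptors are membrane proteins with a lectin fold that bind sugars and lipids of fungi, mycobacteria and dying cells. Dectin-1 (Clec7a) carries its own activating motif, while Dectin-2 (Clec4n) and Mincle (Clec4e) pair with the Fc receptor gamma chain, MCL (Clec4d) forms complexes with them, and MDL-1 (Clec5a) pairs with DAP12. These receptors signal through the kinase Syk, which acts on the adaptor CARD9. MICL (Clec12a) carries an inhibitory motif, and the mannose receptor (Mrc1) and the galactose-type lectins (Clec10a and Mgl2) mainly take up glycoproteins.

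Library totals were 9405112 to 22390882 expected counts (estimated reads or fragments per gene). Acod1 does not separate the genotypes by its counts: it had 13.6 to 26.3 CPM (counts scaled to a common library size) in the libraries labelled Irg1KO and 25.0 to 30.5 CPM in WT vehicle (log2 fold change -0.48, standard error SE 0.26, edgeR adjusted p = 0.194). All 10 macrophage markers on the list used were present in every group, with summed levels of 26107 to 27867 CPM with 4-OI, 25138 to 27382 CPM with hemin, 23327 to 26233 CPM in Irg1KO and 24012 to 24638 CPM in WT vehicle. Markers of other myeloid cells are given beside each comparison. Stromal fibroblast markers stood apart in the Irg1KO libraries: all 10 tested of 12 listed rose, with a sum of 11495 to 12892 CPM in Irg1KO and 1921 to 2354 CPM in WT vehicle. The fibroblast markers Dcn and Lum, which were not tested, averaged 0.29 and 0.02 CPM in Irg1KO and 0.20 and 0.06 CPM in WT vehicle.

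Per transcript length, the receptors covered a wide range of levels in these cells. In FPKM (fragments per kilobase of transcript, scaled to library size by the authors), WT vehicle cells held Clec4d at 387 ± 2.21 and Mrc1 at 294 ± 5.30 (SD, n = 3), which made up 36.6% and 27.8% of the summed level of the 10 genes. Clec12a followed at 130.5 ± 7.10 FPKM, then Clec4a1 at 65.2 ± 5.80, Clec7a at 53.9 ± 1.44, Clec4e at 42.5 ± 4.39, Clec4n at 42.0 ± 3.20 and Clec5a at 36.6 ± 0.686 FPKM. The galactose-type lectins were lowest, Clec10a at 5.57 ± 0.429 and Mgl2 at 0.693 ± 0.211 FPKM. Neighbours in this order differed beyond their spread over libraries except Clec4e and Clec4n, whose ranges overlapped.

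The order changed with the group. With 4-OI it was Clec4d, Clec4n, Clec7a, Mrc1, Clec4a1, Clec12a, Clec5a, Clec4e, Clec10a and Mgl2, with no overlap between neighbours. Clec4n stood second with 4-OI and seventh in WT vehicle, and Mrc1, second in WT vehicle, stood below Clec7a with 4-OI. With hemin the order was Clec4d, Mrc1, Clec4n, Clec12a, Clec4e, Clec4a1, Clec7a, Clec5a, Clec10a and Mgl2, where the ranges of Mrc1 and Clec4n overlapped, as did those of Clec4e and Clec4a1. In Irg1KO it was Clec4d, Mrc1, Clec4n, Clec12a, Clec4a1, Clec7a, Clec4e, Clec5a, Clec10a and Mgl2, with overlaps between Clec4n and Clec12a and between Clec7a and Clec4e. The sum of the 10 genes was 1938 ± 37.5 FPKM with 4-OI, 1397 ± 72.1 with hemin, 1191 ± 99.0 in Irg1KO and 1058 ± 14.4 in WT vehicle (SD, n = 3).

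**Figure D1:**
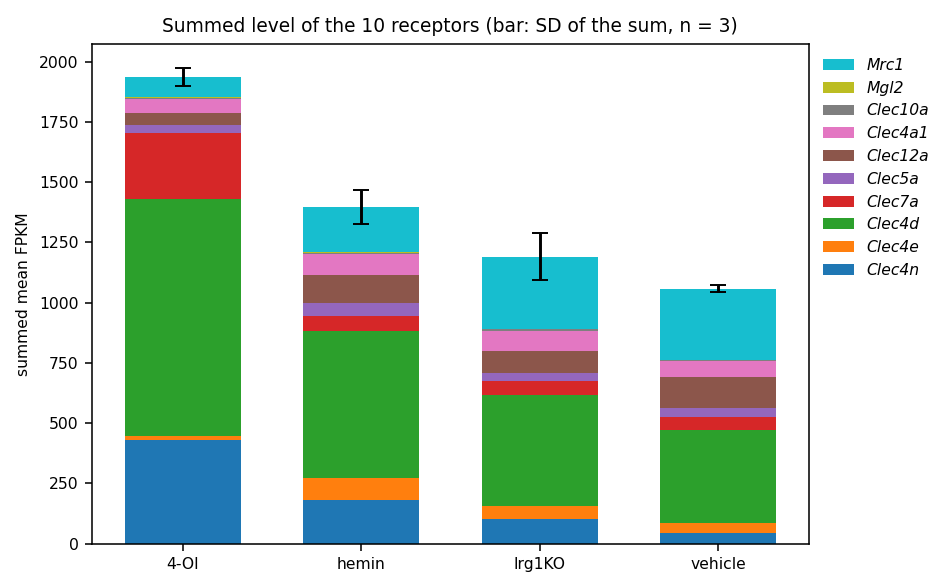
Stacked mean FPKM of the 10 receptors (y axis) in each group (x axis), with the SD of the summed level as error bar, n = 3 per group. Clec4d is the largest block in every group, at 50.8% of the sum with 4-OI and 36.6% in vehicle, while Mrc1 makes up 4.45% with 4-OI and 27.8% in vehicle.

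4-OI was compared with vehicle in WT cells to see what the itaconate derivative changed. The activating receptors split. Dectin-2 (Clec4n), Dectin-1 (Clec7a) and MCL (Clec4d) rose 11.5-fold, 5.65-fold and 2.81-fold, while Mincle (Clec4e) was 2.88-fold lower. The mannose receptor gene Mrc1 was 3.09-fold lower and the inhibitory receptor gene Clec12a 2.40-fold lower. In all, 3 receptors were higher and 3 lower of 10, where 25.4% of all 12148 tested genes were higher and 25.0% lower (50.4% called in either direction), so the share of receptors called was near that of all genes. The median log2 fold change was -0.15 over the 10 receptors and -0.0031 over all genes. The hours differ together with the treatment, 15 h with 4-OI and 12 h with vehicle.

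Clec4n, which encodes the receptor of fungal mannans, had 454, 423 and 419 FPKM in the 4-OI libraries and 40.4, 39.9 and 45.7 FPKM in the vehicle libraries. Every 4-OI library lay above every vehicle library, and the difference was a log2 fold change of 3.52 (SE 0.13, edgeR adjusted p = 9.2e-09). Clec7a, the gene of the beta-glucan receptor Dectin-1, had 282, 271 and 276 FPKM with 4-OI and 53.4, 52.8 and 55.6 FPKM with vehicle, a log2 fold change of 2.50 (SE 0.14, edgeR adjusted p = 4.58e-07). Clec4d, the most abundant of the 10 mRNAs, had 979, 958 and 1016 FPKM with 4-OI and 388, 384 and 388 FPKM with vehicle (1.49, SE 0.05, edgeR adjusted p = 1.9e-22). Neither gene's groups overlapped.

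Clec4e encodes Mincle, which binds the mycobacterial cord factor and is known to associate with MCL. It had 13.5, 12.9 and 14.1 FPKM with 4-OI and 38.4, 47.1 and 41.9 FPKM with vehicle, so all 4-OI libraries were lower (log2 fold change -1.53, SE 0.19, edgeR adjusted p = 0.000137). Clec4d and Clec4e, whose products pair, thus moved in opposite directions. The ratio of Clec4d to Clec4e, taken per library from FPKM, was 72.7, 74.0 and 72.0 with 4-OI and 10.1, 8.15 and 9.26 with vehicle. In the hemin libraries it was 6.56 to 7.57 and in the Irg1KO libraries 7.68 to 9.84, so the 4-OI libraries stood far above the other 9.

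Mrc1, the mannose receptor, had 86.15, 87.1 and 85.7 FPKM with 4-OI and 296, 298 and 288 FPKM with vehicle (log2 fold change -1.63, SE 0.05, edgeR adjusted p = 1.2e-26). Clec12a, the inhibitory receptor for uric acid crystals, had 50.1, 50.6 and 47.3 FPKM with 4-OI and 123, 136 and 133 FPKM with vehicle (-1.26, SE 0.06, edgeR adjusted p = 1.57e-18). In both genes the groups were far apart. The remaining 4 receptors did not pass: Clec5a was at -0.10 (SE 0.06, edgeR adjusted p = 0.171), Clec4a1 at 0.03 (SE 0.06), Clec10a at -0.21 (SE 0.13) and Mgl2 at -0.37 (SE 0.36). Clec4a1 had 58.1 to 61.3 FPKM with 4-OI and 58.8 to 69.95 FPKM with vehicle, and Clec10a 3.86 to 5.22 FPKM with 4-OI and 5.09 to 5.92 FPKM with vehicle, so these groups overlapped, as did those of Mgl2. Clec5a had 29.54 to 32.2 FPKM with 4-OI and 36.0 to 37.4 FPKM with vehicle, with no overlap in FPKM. With deposited FPKM as the unit, where the median of all genes lay at -0.14 with 0.1 added, Clec5a and Clec10a did pass, at -0.23 and -0.34 (limma adjusted p = 0.00738 and 0.0108).

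**Figure D2:**
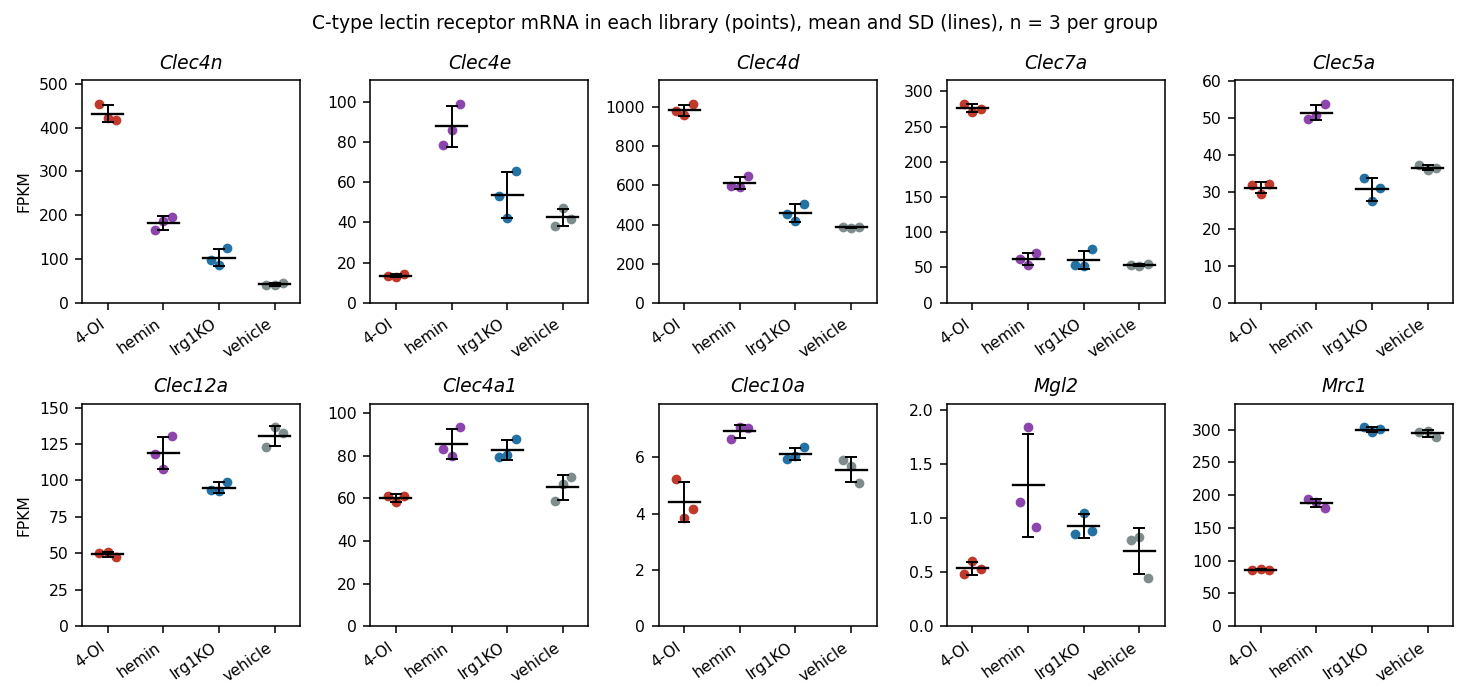
FPKM (y axis, from 0) of each receptor in each of the 12 libraries (points), with the mean and SD of each group of 3 (lines). Clec4n, Clec4d and Clec7a are highest with 4-OI, where Clec4e, Clec12a and Mrc1 are lowest, and Clec4e and Clec5a are highest with hemin.

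Markers of other cells were read beside these changes, and their part in the changes was not tested. The summed neutrophil markers were at 339 to 362 CPM with 4-OI and 84.4 to 95.0 CPM with vehicle (2 of 5 tested rose, of 12 listed), mostly the metalloproteinase gene Mmp8, at 313 CPM on average with 4-OI and 79.5 CPM with vehicle (log2 fold change 1.97, SE 0.05). S100a8, a calprotectin subunit, was the other that rose, at 31.2 CPM with 4-OI and 2.39 CPM with vehicle (3.69, SE 0.15, edgeR adjusted p = 1.25e-21). The granule enzymes Mpo and Elane averaged 0.40 and 0.14 CPM with 4-OI and 0.27 and 0.12 CPM with vehicle, and Ly6g was taken as 0 in all 12 libraries. The summed dendritic cell markers were at 42.2 to 50.2 CPM with 4-OI and 26.4 to 27.3 CPM with vehicle (1 of 4 tested rose, of 10 listed), mostly the integrin gene Itgax, at 40.5 CPM with 4-OI and 22.8 CPM with vehicle, while Flt3 and Ccr7 were at 0 in both groups. Monocyte markers summed to 78.2 to 84.6 CPM with 4-OI and 213 to 236 CPM with vehicle, with 1 of 6 tested higher and 1 lower, of 8 listed. Cx3cr1 averaged 4.85 CPM with 4-OI and 194 CPM with vehicle, while Treml4 averaged 63.4 CPM with 4-OI and 17.2 CPM with vehicle (1.88, SE 0.07) and Ly6c2 0.47 and 0.60 CPM. Osteoclast markers summed to 61.5 to 68.2 CPM with 4-OI and 50.5 to 52.7 CPM with vehicle (3 of 5 tested rose, of 8 listed), and endothelial markers to 9.59 to 11.0 CPM with 4-OI and 36.6 to 40.8 CPM with vehicle (2 of 5 tested lower, of 6 listed). In bulk RNA, fewer cells of a type and less RNA per cell cannot be told apart.

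On chromosome 6, Clec4n, Clec4d and Clec4e lie next to each other at one end of the Dectin-2 gene cluster, and Clec4a1 lies at the other end (gene order from RefSeq, GRCm38.p6). Between them stand Clec4a3, Clec4a4, Clec4b1, Clec4a2 and Clec4b2. Of these, Clec4a2, which encodes the inhibitory receptor DCIR, rose with 4-OI by a log2 fold change of 0.83 (SE 0.07, edgeR adjusted p = 6.73e-09) and Clec4a3 was at -0.03 (SE 0.07). Clec4a2 also rose with hemin (0.55, edgeR adjusted p = 1.51e-05) and in Irg1KO (0.26, edgeR adjusted p = 0.00828). Clec4b1 was at -0.83 (SE 0.37, edgeR adjusted p = 0.0641) from 8 to 30 counts per library, and Clec4a4 and Clec4b2 had at most 5 and 2 counts and were not tested. Clec4n and Clec4d, which rose most in the cluster, thus stand beside Clec4e, its 1 tested gene called lower. In the Dectin-1 cluster, Clec12a and Clec7a lie at opposite ends of a run with Clec12b, Clec1b, Clec9a and Clec1a, none of which had more than 8 counts in a library, and those 2 also moved in opposite directions with 4-OI.

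**Figure D3:**
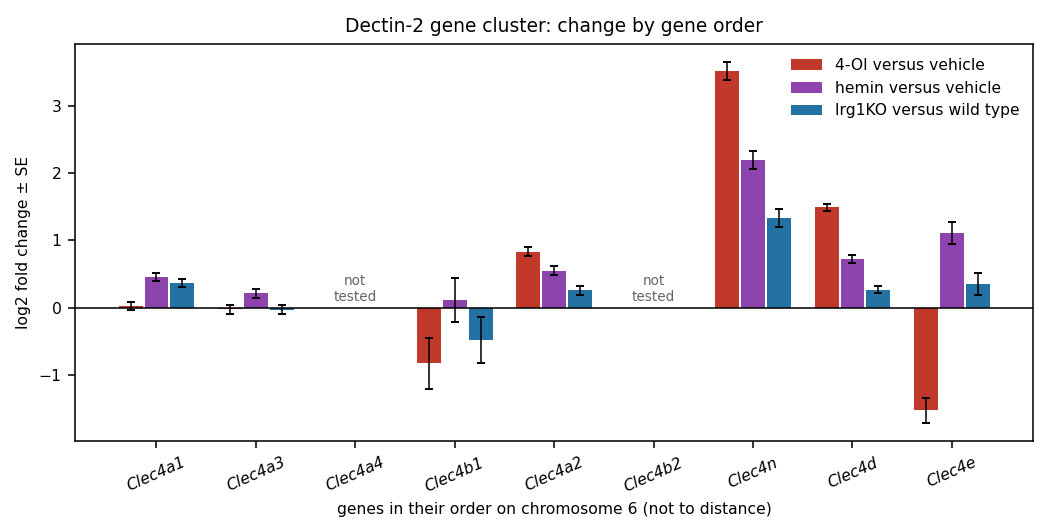
Log2 fold change (y axis, bars, with SE) of the genes of the Dectin-2 cluster in their order along chromosome 6 (x axis) for 4-OI, hemin and Irg1KO against WT vehicle. With 4-OI Clec4n and Clec4d are at 3.52 and 1.49 and the adjoining Clec4e at -1.53, while with hemin the same 3 genes are at 2.20, 0.72 and 1.11.

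The upstream sequences of Clec4d and Clec4e are shown because these neighbours moved apart with 4-OI, and that of Clec7a as the other strong riser. They are the 250 bases before the annotated start, 5′ to 3′ on the gene's own strand, from RefSeq (build GRCm38.p6): chr6:123261857-123262106 on the plus strand, chr6:123289872-123290121 on the minus strand and chr6:129472780-129473029 on the minus strand. Capitals mark GAGGAA or its reverse complement, the core of the motif of the myeloid factor PU.1.
Clec4d: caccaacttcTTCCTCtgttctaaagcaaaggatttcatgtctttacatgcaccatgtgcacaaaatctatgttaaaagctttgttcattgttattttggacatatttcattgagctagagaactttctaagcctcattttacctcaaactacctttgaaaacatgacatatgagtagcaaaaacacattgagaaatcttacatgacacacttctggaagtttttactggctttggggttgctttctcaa
Clec4e: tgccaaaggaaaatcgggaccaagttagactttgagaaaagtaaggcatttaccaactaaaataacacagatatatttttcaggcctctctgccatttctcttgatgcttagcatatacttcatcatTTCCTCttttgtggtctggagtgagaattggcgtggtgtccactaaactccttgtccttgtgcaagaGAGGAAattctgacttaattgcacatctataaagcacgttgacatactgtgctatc
Clec7a: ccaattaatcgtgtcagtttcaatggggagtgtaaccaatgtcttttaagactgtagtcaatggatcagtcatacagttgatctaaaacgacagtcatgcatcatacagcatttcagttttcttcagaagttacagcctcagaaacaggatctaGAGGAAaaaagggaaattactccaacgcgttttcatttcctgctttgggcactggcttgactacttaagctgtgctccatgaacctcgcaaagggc
Promoters of 8 of the 10 receptors were matched in the table (not Clec4n and Clec10a). GAGGAA, searched on both strands, occurred in 8 of the 8 windows and in 23.3% of all 32851 windows of the same length. In Clec4d the match begins 240 bases before the start, in Clec7a 96 bases, and in Clec4e 123 and 56 bases before it. The antioxidant response element core TGACNNNGC, which NRF2 and BACH1 bind, occurred in 0 of the 8 windows and in 10.2% of all, and the AP-1 motif TGANTCA, which can overlap it, in that of Clec12a alone and in 6.75% of all. The E-box CACGTG had 0 of 8 (6.02% of all), the C/EBP form TTGCNNAA 2 of 8, namely Clec4e and Clec12a (9.56% of all), and an NF-kB form (3 G, any 5 bases and 2 C) 3 of 8, namely Clec4a1, Mgl2 and Mrc1 (45.8% of all). A match is a description of these letters and not a bound site.

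Hemin was compared with vehicle in WT cells, both at 12 h. Most receptors rose, and all 3 adjoining genes of the Dectin-2 cluster did: Clec4n 4.59-fold, Clec4e 2.16-fold and Clec4d 1.65-fold. Clec5a, Clec4a1, Clec10a and Mgl2 rose by less than 1 on the log2 scale. Mrc1 was 1.5-fold lower. In all, 7 receptors were higher and 1 lower of 10, where 9.48% of all genes tested were higher and 7.74% lower (17.2% in either direction). The median log2 fold change was 0.51 over the 10 receptors and -0.0060 over all genes.

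Clec4n had 165, 187 and 196 FPKM with hemin and 40.4, 39.9 and 45.7 FPKM with vehicle, with a wide gap between the groups (log2 fold change 2.20, SE 0.13, edgeR adjusted p = 2.61e-06). Clec4e had 78.7, 85.9 and 98.9 FPKM with hemin and 38.4, 47.1 and 41.9 FPKM with vehicle (1.11, SE 0.16, edgeR adjusted p = 0.00157). Clec4d had 596, 594 and 649 FPKM with hemin and 388, 384 and 388 FPKM with vehicle (0.72, SE 0.05, edgeR adjusted p = 1.21e-12). No group of these 3 genes overlapped the other. The ratio of Clec4n to Clec4d, per library from FPKM, was 0.298 ± 0.019 with hemin and 0.109 ± 0.00791 with vehicle (SD, n = 3), beside 0.439 ± 0.026 with 4-OI.

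Clec5a, the gene of the DAP12-coupled receptor MDL-1, had 49.75, 51.0 and 53.85 FPKM with hemin and 37.4, 36.0 and 36.5 FPKM with vehicle (log2 fold change 0.56, SE 0.06, edgeR adjusted p = 2.09e-09). Clec4a1, of the DCIR group, had 83.2, 79.99 and 93.3 FPKM with hemin and 58.8, 67.0 and 69.95 FPKM with vehicle (0.46, SE 0.06, edgeR adjusted p = 2.06e-06). Both were higher in all 3 hemin libraries than in any vehicle library. Mrc1 had 194, 189 and 181 FPKM with hemin and 296, 298 and 288 FPKM with vehicle (-0.58, SE 0.04, edgeR adjusted p = 1.23e-12). Clec7a, by contrast with its change under 4-OI, was at 0.27 (SE 0.15, edgeR adjusted p = 0.283), with 61.4, 54.1 and 70.6 FPKM with hemin and 53.4, 52.8 and 55.6 FPKM with vehicle, and its groups overlapped in FPKM. It passed with hemin when only those 2 groups entered the fit or when no filter was used (edgeR adjusted p = 0.0272 and 2.66e-05). Its log2 fold change stayed at 0.27 in both of these fits. P-values fell far with no filter for other receptors too. Clec4e with hemin was at 1.11 in the main fit and with no filter (edgeR adjusted p = 0.00157 and 3.74e-90). Clec12a was at -0.07 (SE 0.06, edgeR adjusted p = 0.427), with 118, 108 and 130.2 FPKM with hemin and 123, 136 and 133 FPKM with vehicle, again with overlap.

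The galactose-type lectins were the weakest calls. Clec10a, which binds galactose and Lewis X sugars, had 6.66, 7.06 and 7.04 FPKM with hemin and 5.92, 5.69 and 5.09 FPKM with vehicle (log2 fold change 0.36, SE 0.13, edgeR adjusted p = 0.0392). The call was lost without any 1 of hemin replicates 2 and 3 and vehicle replicates 1, 2 and 3 (0.32 to 0.41, edgeR adjusted p = 0.0533 to 0.121) and with DESeq2 (adjusted p = 0.11). Mgl2, its close relative, rests on few reads: 16, 37 and 19 counts with hemin and 19, 28 and 7 counts with vehicle. Its log2 fold change was 0.91 (SE 0.30, edgeR adjusted p = 0.0307), but 0.55 without hemin replicate 2 (edgeR adjusted p = 0.363), 0.97 without vehicle replicate 1 (0.0583) and 0.73 without vehicle replicate 3 (0.12).

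Monocyte markers summed to 310 to 357 CPM with hemin and 213 to 236 CPM with vehicle (1 of 6 tested rose, of 8 listed). Treml4 averaged 106 CPM with hemin and 17.2 CPM with vehicle, Cx3cr1 averaged 215 and 194 CPM, and Ly6c2 and Ccr2 were at 0.49 and 1.56 CPM with hemin and 0.60 and 1.47 CPM with vehicle. The summed neutrophil and dendritic cell markers were at 95.7 to 105 and 26.8 to 30.01 CPM with hemin and 84.4 to 95.0 and 26.4 to 27.3 CPM with vehicle. Endothelial markers summed to 17.6 to 19.8 CPM with hemin and 36.6 to 40.8 CPM with vehicle (1 of 5 tested lower, of 6 listed). Of these, Kdr averaged 11.1 CPM with hemin and 28.6 CPM with vehicle. Osteoclast markers were at 50.3 to 53.9 CPM with hemin and 50.5 to 52.7 CPM with vehicle (1 of 5 tested rose, of 8 listed).

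The cultures labelled Irg1KO were compared with WT, both with vehicle for 12 h. Dectin-2 (Clec4n) was again the receptor that rose most, 2.52-fold, with smaller rises of Clec4a1 (1.29-fold) and Clec4d (1.2-fold). Clec12a and Clec5a were 1.35-fold and 1.17-fold lower. In all, 3 receptors were higher and 2 lower of 10, where 23.5% of all genes tested were higher and 16.3% lower (39.8% in either direction), so the share called was near that of all genes. The median log2 fold change was 0.23 over the 10 receptors and -0.00033 over all genes. All of these changes stand beside the stromal markers, which rose by a median of 2.50 on the log2 scale (10 of 10 tested) and include Col1a1 at 4850 CPM in Irg1KO and 816 CPM in WT vehicle. The summed neutrophil, monocyte and dendritic cell markers were at 41.9 to 46.1, 70.1 to 80.6 and 24.1 to 32.0 CPM in Irg1KO and 84.4 to 95.0, 213 to 236 and 26.4 to 27.3 CPM in WT vehicle. Of those tested, 1 neutrophil marker was higher and 3 lower of 5, 1 monocyte marker higher and 1 lower of 6, and 1 dendritic cell marker higher and 1 lower of 4. Osteoclast markers summed to 91.5 to 104.6 CPM in Irg1KO and 50.5 to 52.7 CPM in WT vehicle (3 of 5 tested rose, of 8 listed), with the protease gene Ctsk at 53.9 CPM in Irg1KO and 16.7 CPM in WT vehicle (1.70, SE 0.08, edgeR adjusted p = 5.27e-20). Atp6v0d2 averaged 19.2 CPM in Irg1KO and 12.7 CPM in WT vehicle, and Mmp9 averaged 4.03 and 1.25 CPM. Acp5 averaged 21.1 and 20.0 CPM in the same groups, and Ocstamp 0.39 and 0.68 CPM. Oscar and Dcstamp averaged 0.13 and 0.17 CPM in Irg1KO and 0.08 and 0.05 CPM in WT vehicle, and Calcr was absent from all libraries. Endothelial markers summed to 30.5 to 34.1 CPM in Irg1KO and 36.6 to 40.8 CPM in WT vehicle (2 of 5 tested lower). Any part of other cell types in the receptor changes was not tested.

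Clec4n had 97.1, 86.4 and 125 FPKM in Irg1KO and 40.4, 39.9 and 45.7 FPKM in WT vehicle, so every Irg1KO library was higher (log2 fold change 1.33, SE 0.14, edgeR adjusted p = 3.02e-05). Irg1KO replicate 3 had the highest FPKM of its group for Clec4n, Clec4d, Clec4e, Clec7a, Clec4a1, Clec12a and Clec10a, but not for Clec5a, Mgl2 and Mrc1. Clec4d had 455, 416 and 504 FPKM in Irg1KO and 388, 384 and 388 FPKM in WT vehicle (0.27, SE 0.05, edgeR adjusted p = 0.000112). Clec4a1 had 79.3, 80.5 and 88.1 FPKM in Irg1KO and 58.8, 67.0 and 69.95 FPKM in WT vehicle (0.37, SE 0.06, edgeR adjusted p = 1.4e-05). The groups of these 3 genes did not overlap.

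Clec12a had 93.7, 92.55 and 99.1 FPKM in Irg1KO and 123, 136 and 133 FPKM in WT vehicle (log2 fold change -0.43, SE 0.06, edgeR adjusted p = 1.15e-07). Clec5a had 33.7, 27.6 and 31.05 FPKM in Irg1KO and 37.4, 36.0 and 36.5 FPKM in WT vehicle (-0.22, SE 0.06, edgeR adjusted p = 0.00166), and its change was -0.15 without Irg1KO replicate 2. Clec4e was at 0.35 (SE 0.16, edgeR adjusted p = 0.129), with 53.0, 42.3 and 65.65 FPKM in Irg1KO and 38.4, 47.1 and 41.9 FPKM in WT vehicle, and its groups overlapped. It passed without Irg1KO replicate 2 (0.50, edgeR adjusted p = 0.016) and with no filter, there at a smaller change than in the main fit (0.32, edgeR adjusted p = 4.13e-08). Clec7a was at 0.19 (SE 0.15, edgeR adjusted p = 0.345), from 53.6, 52.6 and 75.6 FPKM in Irg1KO and 53.4, 52.8 and 55.6 FPKM in WT vehicle, and its groups overlapped. It passed with no filter, again at a smaller change (0.17, edgeR adjusted p = 0.0103). Mrc1 was at 0.06 (SE 0.04, edgeR adjusted p = 0.3), with 303, 296 and 301 FPKM in Irg1KO and 296, 298 and 288 FPKM in WT vehicle, and its groups overlapped in FPKM. Clec10a was at 0.14 (SE 0.12, edgeR adjusted p = 0.378), with 5.94, 6.04 and 6.37 FPKM in Irg1KO and 5.92, 5.69 and 5.09 FPKM in WT vehicle, and Mgl2 was at 0.43 (SE 0.31, edgeR adjusted p = 0.283).

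4-OI and hemin were set against each other directly, a contrast in which the vehicle level cancels. All 10 receptors were called, 3 higher and 7 lower with 4-OI than with hemin, where 20.6% of all genes tested were higher and 21.7% lower (42.3% in either direction). Clec4e showed the widest gap, 6.22-fold lower with 4-OI: 13.5, 12.9 and 14.1 FPKM with 4-OI and 78.7, 85.9 and 98.9 FPKM with hemin (log2 fold change -2.64, SE 0.19, edgeR adjusted p = 3.4e-06). Clec7a was 4.70-fold higher with 4-OI (2.23, SE 0.14, edgeR adjusted p = 1.53e-06), Clec4n 2.50-fold (1.32, SE 0.12, edgeR adjusted p = 1.15e-05) and Clec4d 1.70-fold (0.77, SE 0.05, edgeR adjusted p = 3.1e-14).

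Of the others, Clec12a was lower with 4-OI by -1.19 (SE 0.06, edgeR adjusted p = 2.22e-17) and Mrc1 by -1.05 (SE 0.05, edgeR adjusted p = 1.92e-20) on the log2 scale. Clec5a was at -0.65 (SE 0.06), Clec10a at -0.57 (SE 0.14) and Clec4a1 at -0.43 (SE 0.06), where 4-OI itself had not moved these 3 past the threshold against vehicle. Mgl2 was at -1.28 (SE 0.34, edgeR adjusted p = 0.00226), from 9, 14 and 7 counts with 4-OI and 16, 37 and 19 counts with hemin, and lost its call without hemin replicate 2 (-0.91, edgeR adjusted p = 0.0591). The compounds also differ in dose and in hours (15 h with 4-OI and 12 h with hemin). The comparisons with vehicle share its 3 libraries.

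**Figure D4:**
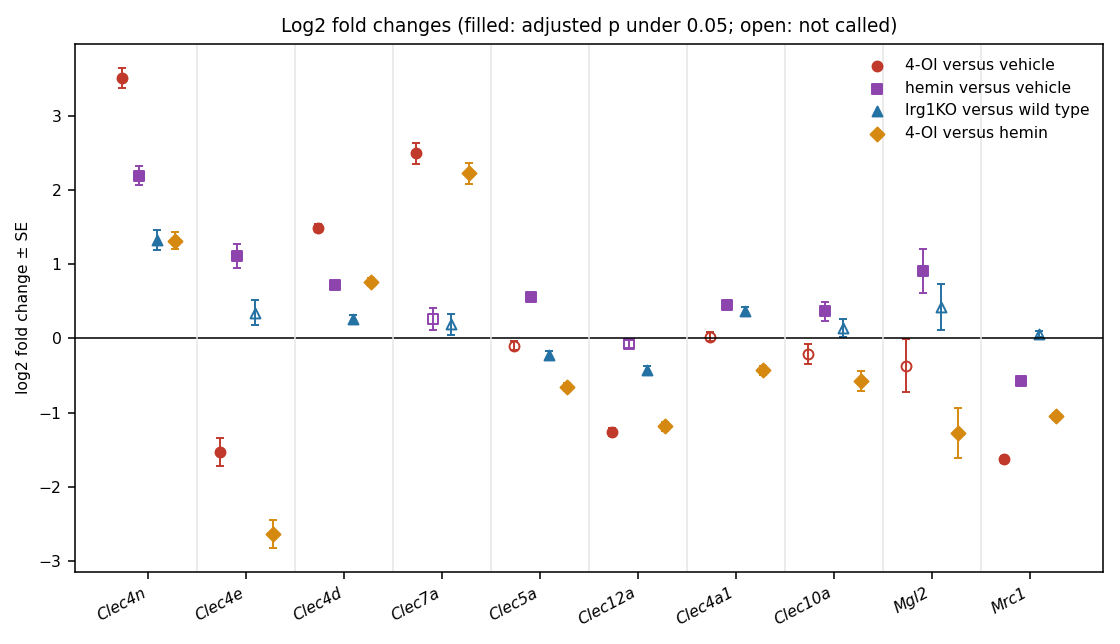
Log2 fold change with SE (y axis) of each receptor (x axis) in the 4 comparisons, filled where the edgeR adjusted p was under 0.05 and open where it was not. Clec4e lies at -1.53 with 4-OI and 1.11 with hemin, and Clec4n lies above 0 in all 4 comparisons.

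Deposited transcript lengths, which follow the mix of isoforms, differed little between groups, apart from Mgl2 with its 7 to 37 counts a library. Mgl2 averaged 1506 nucleotides with 4-OI, 1603 with hemin, 1652 in Irg1KO and 1580 in WT vehicle. Its lengths overlapped in every comparison. Clec7a, Clec12a and Mrc1 are each listed with 1 transcript, so their isoforms could not be compared. Among the others, the deposited mean length of Clec4n was 1214 nucleotides in Irg1KO and 1202 in WT vehicle with no overlap (exact two-sided permutation p = 0.1, the smallest that 3 against 3 allows). That of Clec10a differed by -0.31 nucleotides between hemin and vehicle, again with no overlap (exact two-sided permutation p = 0.1). Receptors with more than 1 transcript were tested in up to 4 comparisons each, without correction for the number of tests. These separations therefore cannot be told from chance. Counts of 8 of the receptors were whole numbers in all 12 libraries, and those of Clec10a and Mgl2 in 11 of 12. Clec7a, Mgl2 and Mrc1 overlap the annotated genes Gm45969, Gm12311 and Mir511, and the strand setting of the counting is not given in the sources used here, so reads of these partners could not be told apart.

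Genes with the most similar profile were sought among the 9607 tested genes that averaged 5 CPM or more and had no provisional name. The measure was the root-mean-square difference of the log2 fold changes of 4-OI, hemin and Irg1KO against the shared WT vehicle (4 groups, 12 libraries). It was not scaled to the size of the changes. Clec4d was nearest to Esd (esterase D, 0.04), Cebpb (0.12) and Prr13 (0.12). Clec7a was nearest to Nampt (0.17), Glul, glutamine synthetase (0.19), and Layn (0.23), which itself encodes a protein with a C-type lectin domain. Clec4n had no close match, with Gsta3 (0.50), Hal (0.51) and Slc6a9 (0.52) nearest, and Clec4e was nearest to Cd38 (0.23), Arl5c (0.30) and Siglece (0.33). Mrc1 was nearest to Xaf1 (0.07), Rapgef5 (0.09) and Dhx58 (0.09), and Clec12a to Nusap1 (0.03), Adgb (0.04) and Cdkn2d (0.05). Clec5a was nearest to Gbgt1 (0.03), Gsap (0.06) and Igsf6 (0.07), Clec4a1 to Sec24d (0.09), Plpp5 (0.09) and Txnl4b (0.10), Clec10a to Ebi3 (0.04), Agtrap (0.07) and Naaa (0.07), and Mgl2 to Klf2 (0.14), Icam1 (0.19) and Pou2f2 (0.19).

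Genes downstream of the activating receptors, namely adaptors, kinases, other signalling proteins and transcription factors, were called in both directions with 4-OI. Of 32 tested, 8 were higher and 9 lower (median log2 fold change -0.0083), where 25.4% of all genes tested were higher and 25.0% lower. Tyrobp, the gene of DAP12, was at 692 CPM with 4-OI and 486 CPM with vehicle (0.51, SE 0.05). The transcription factor gene Nfatc2 and the adaptor gene Blnk were both at -1.04. With hemin 8 were higher and 3 lower (median 0.05; 9.48% and 7.74% of all genes), among them Fgr at 1.21 (SE 0.16) and Vav3 at -0.35 (SE 0.05). In Irg1KO 1 was higher and 18 lower (median -0.18; 23.5% and 16.3% of all genes), with Card9 lower, at 30.7 CPM in Irg1KO and 46.7 CPM in WT vehicle (-0.61, SE 0.07), Plcg2 (-0.37) and Vav1 (-0.34). The 1 that rose was Src (1.88, SE 0.14), in the libraries whose stromal markers rose by a median of 2.50.

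The list of brakes on this signalling held inhibitory receptors, phosphatases, the ubiquitin ligases Cbl and Cblb and the adaptors Dok1, Dok2 and Dok3. Its genes were 8 higher and 4 lower of 15 with 4-OI (median 0.24), 4 and 2 with hemin (0.11) and 4 and 7 in Irg1KO (-0.07). Of all genes tested, 25.4% were higher and 25.0% lower with 4-OI, 9.48% and 7.74% with hemin, and 23.5% and 16.3% in Irg1KO. With 4-OI, the inhibitory receptor genes Cd300a and Lilr4b rose by 1.16 (SE 0.06) and 1.03 (SE 0.06), and Sirpa, the receptor of CD47, was at -0.67 (SE 0.05). Ptpn6, the gene of the phosphatase SHP-1 that inhibitory motifs recruit, was at -0.24 (SE 0.05) with 4-OI. With hemin Pirb rose by 0.78 (SE 0.06). In Irg1KO Inpp5d, the gene of the lipid phosphatase SHIP1, was at -0.35 (SE 0.05).

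Genes that Syk and CARD9 signalling is known to induce were 7 higher and 4 lower of 16 tested with 4-OI (median 0.26), 3 and 4 with hemin (0.06) and 8 and 2 in Irg1KO (0.19). The shares over all genes tested were 25.4% higher and 25.0% lower with 4-OI, 9.48% and 7.74% with hemin, and 23.5% and 16.3% in Irg1KO. Tnf was at 20.9 CPM with 4-OI and 29.1 CPM with vehicle (-0.48, SE 0.08), and at 44.7 CPM with hemin (0.62 against vehicle, SE 0.07). The chemokine gene Ccl4 was at -2.58 (SE 0.10) with 4-OI and -0.82 (SE 0.08) with hemin, while Tnfaip3, a feedback inhibitor of NF-kB, rose by 0.80 (SE 0.07) with 4-OI. In Irg1KO the interleukin 1 receptor antagonist gene Il1rn and the cyclooxygenase gene Ptgs2 rose by 1.68 (SE 0.09) and 1.39 (SE 0.15), beside the raised stromal markers.

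Transcription factors linked to these receptors were 17 higher and 5 lower of 23 tested with 4-OI (median 0.32), 11 and 3 with hemin (0.17) and 5 and 7 in Irg1KO (-0.02). Over all genes, 25.4% were higher and 25.0% lower with 4-OI, 9.48% and 7.74% with hemin, and 23.5% and 16.3% in Irg1KO. Cebpb was at 65 CPM with 4-OI and 26.3 CPM with vehicle (1.30, SE 0.08) and at 43.6 CPM with hemin (0.73, SE 0.08), and Irf8 rose by 0.99 (SE 0.05) with 4-OI and 0.71 (SE 0.05) with hemin. Maf was at -1.38 (SE 0.06) with 4-OI. Of the genes known to rise with Mrc1, Clec10a and Mgl2 in alternative activation, 6 were higher and 3 lower of 14 tested with 4-OI (median 0.12), 3 and 1 with hemin (0.03) and 2 and 3 in Irg1KO (0.07). In either direction, 50.4% of all genes were called with 4-OI, 17.2% with hemin and 39.8% in Irg1KO, so this list was called at shares near those of all genes with 4-OI and in Irg1KO. Mmp12 rose by 3.23 (SE 0.13) with 4-OI and the transglutaminase gene Tgm2 was at -1.28 (SE 0.05), and Pparg was at -0.33 (SE 0.11) with hemin.

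The other C-type lectin genes gave 5 higher and 9 lower of 18 tested with 4-OI (median -0.44, of 57 listed), 3 and 5 with hemin (-0.08) and 8 and 3 in Irg1KO (0.14). Among all genes tested, 25.4% were higher and 25.0% lower with 4-OI, 9.48% and 7.74% with hemin, and 23.5% and 16.3% in Irg1KO. With 4-OI the endocytic receptor gene Ly75 (DEC-205) rose by 0.65 (SE 0.09), and Cd93 and Cd72 were at -0.61 (SE 0.04) and -0.98 (SE 0.08). With hemin Cd93 was at -0.40 (SE 0.04) and Cd302 rose by 0.33 (SE 0.06). In Irg1KO Mrc2, the collagen-binding relative of Mrc1 that fibroblasts also carry, was at 67.1 CPM in Irg1KO and 13.6 CPM in WT vehicle (2.32, SE 0.09), in the same libraries as the raised stromal markers. Mrc1 itself was at 0.06 in that comparison. Ly75 rose more in Irg1KO than with 4-OI, at 62.0 CPM in Irg1KO and 15.7 CPM in WT vehicle (1.98, SE 0.08). Colec12 rose by 0.71 (SE 0.06) in Irg1KO, where Cd72 was at -0.41 (SE 0.08).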

How the data were processed

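RNA of 12 libraries was analysed, 3 per group. The submitters' processing notes name the tools RSEM, Bowtie2, StringTie and HISAT2 and the builds mm39 and GRCm39, with no role or order; versions are not given in the sources used here. The deposited expected counts (estimated reads per gene, per the file headers) were rounded to whole numbers; 90.62 to 92.03% per library already were. The deposited FPKM, per the file headers, divide them by transcript length and library total and were used for levels between genes. A gene with no row in a library was taken as 0. Counts were filtered with filterByExpr (12148 genes left), scaled with TMM (factors 0.944 to 1.050) and tested with the edgeR 4.0.16 quasi-likelihood F test (robust, R 4.3.3) in 1 fit of all groups. P-values were adjusted over these genes by the Benjamini-Hochberg method, with calls at less than 0.05. The SE comes from F, as the size of the log2 fold change over the root of F. CPM are TMM-scaled; the FPKM printed are not, so the fold changes are those of the CPM scale.

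Alternatives were RLE and upper-quartile factors, DESeq2 1.42.0, limma 3.58.1 on log2 FPKM with 1 or 0.1 added, other filters, a replicate block, the compared groups alone and each replicate left out. The test was tried on simulated data. Replicate pairs differed by 2.40 to 4.90 times counting noise (chi-square per degree of freedom), so none is the same library counted again. Separate libraries made from 1 culture or 1 RNA cannot be told apart in this way from separate cultures. List genes were named by adjusted p (up to 3 per direction, averaging 5 CPM or more), and similar genes as the 3 nearest. Some of the genes so chosen are not reported here. The members and lists were chosen with earlier results of these data known. Tables were handled with Python 3.11.15 and pandas 2.3.3, exact tests with SciPy 1.17.1 and plots with matplotlib 3.10.9.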

Additional observations from a re-analysis of the deposited data

How the results depend on the processing

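The number of receptors called kept within 1.5 times its value under every alternative run. With 4-OI against vehicle it was 6, and 8 with either FPKM setting. With hemin it was 8, and 6 with DESeq2, 9 with no filter and 6 to 8 as each replicate was left out. In Irg1KO it was 5, and 7 with no filter and 5 to 6 as each replicate was left out. For 4-OI against hemin it was 10, and 9 to 10 as each replicate was left out. Over all genes, 6126 were called with 4-OI in the main fit, 6351 with FPKM plus 1 and 6402 with FPKM plus 0.1. Hemin gave 2092, with 1779 under DESeq2, 2229 with no filter and 1537 to 2086 as each replicate was left out. Irg1KO gave 4833, with 5441 under no filter and 4213 to 4586 as each replicate was left out. The contrast of 4-OI and hemin gave 5136, and 4392 to 4749 as each replicate was left out. With no filter, p-values could fall far while fold changes hardly moved. Clec4e with 4-OI was at -1.53 in the main fit (edgeR adjusted p = 0.000137) and at -1.53 with no filter (edgeR adjusted p = 1.3e-124). The replicate block gave 6, 8, 5 and 10 receptors called, the same counts as the main fit. Same-numbered libraries correlated at -0.08 to 0.07 in their deviations, so the numbers were not taken as pairs. The sign turned for Clec4a1 with 4-OI, which was not called under any setting: -0.0073 with upper-quartile factors, -0.1122 with FPKM plus 1, -0.1138 with FPKM plus 0.1, and -0.0438 without WT vehicle replicate 1, within a range of -0.0438 to 0.0692 as each replicate was left out; the cause was not tested. Of 600 single-receptor values under alternatives, 575 kept both direction and side of the threshold, 12 lost a call and 9 gained one. Of the lost calls, Mgl2 with hemin also fell short with DESeq2 (0.93, adjusted p = 0.0939) and in a fit of hemin and vehicle alone (0.91, edgeR adjusted p = 0.0553). Mgl2, at 7 to 37 counts a library, limits what can be read at this depth.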
